A study of Mus musculus with 35 samples.

Results

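The comparison described here is the interaction between loss of E2f7 and loss of E2f8 in the mouse liver at 3 weeks of age. For each gene it is the difference left when the changes of the 2 single losses are added and set against the change of the double loss: the mean log2 signal of the double knockout, minus that of each single knockout, plus that of wild type. A value of 0 means that the double loss equals the sum of the single losses. A positive value means that the double knockout lay above that sum, and a negative value that it lay below. The comparison used 15 of the series' 35 arrays, and was computed for 18193 genes.

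The 4 groups were livers of Albumin-Cre E2f7loxp/loxp E2f8loxp/loxp mice (called 78KO below, 4 arrays), Albumin-Cre E2f7loxp/loxp mice (7KO, 4 arrays), Albumin-Cre E2f8loxp/loxp mice (8KO, 4 arrays) and wild-type controls (WT, 3 arrays). All were on the FVB background and were taken at 3 weeks. The Albumin promoter drives Cre in the hepatocyte lineage, and deletion by cell type was not measured here. The labels do not say whether the wild-type controls carried Cre or floxed alleles, nor that each array came from a separate animal. The p-values therefore measure a spread between arrays, which may be technical. Except where 3-week arrays alone are named, that spread is pooled over all 35 arrays of the series. These include livers at 2 months, among them 3 arrays of Mx1-Cre E2f1-/- E2f2-/- E2f3loxp/loxp mice.

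E2f7 and E2f8 are the atypical members of the E2F family of transcription factors. They bind DNA without the DP partner that the other members need, as homodimers or as a heterodimer with each other, and they repress genes that E2F1 and other activator members switch on for DNA replication and division. In the liver they are known for the polyploidisation of hepatocytes around weaning, and each is commonly described as able to stand in for the other, which is the question that a test of single against double loss addresses.

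The regions upstream of the deleted genes, of Trhde, the gene furthest above the sum among those past the threshold, and of Zfp61, the only gene past the threshold with an E2F word in this window, are shown first. Each is the 250 bases before the gene's start in RefSeq (GRCm38.p6), read on the gene's own strand from 5′ to 3′. Capitals mark any of the words TTTCCCGC, TTTGGCGC, TTTCGCGC and TTTGCCGC, which were searched on both strands. The windows are chr10:110745189-110745438 on the plus strand for E2f7, and on the minus strand chr7:48881597-48881846 for E2f8, chr7:24299550-24299799 for Zfp61 and chr10:114802303-114802552 for Trhde.
E2f7: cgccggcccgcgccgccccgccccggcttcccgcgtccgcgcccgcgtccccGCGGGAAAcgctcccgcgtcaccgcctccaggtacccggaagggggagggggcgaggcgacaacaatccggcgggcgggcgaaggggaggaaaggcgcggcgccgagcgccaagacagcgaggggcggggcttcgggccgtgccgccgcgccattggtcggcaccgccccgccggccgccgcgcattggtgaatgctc
E2f8: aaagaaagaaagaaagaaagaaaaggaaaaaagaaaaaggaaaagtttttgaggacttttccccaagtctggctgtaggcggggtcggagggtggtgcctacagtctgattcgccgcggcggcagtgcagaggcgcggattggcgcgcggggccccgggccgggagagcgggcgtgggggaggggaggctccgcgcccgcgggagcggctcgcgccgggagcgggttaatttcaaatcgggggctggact
Zfp61: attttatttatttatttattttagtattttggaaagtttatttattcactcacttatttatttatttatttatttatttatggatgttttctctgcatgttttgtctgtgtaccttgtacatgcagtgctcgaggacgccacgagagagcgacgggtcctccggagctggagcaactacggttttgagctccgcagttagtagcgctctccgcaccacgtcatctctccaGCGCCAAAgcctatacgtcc
Trhde: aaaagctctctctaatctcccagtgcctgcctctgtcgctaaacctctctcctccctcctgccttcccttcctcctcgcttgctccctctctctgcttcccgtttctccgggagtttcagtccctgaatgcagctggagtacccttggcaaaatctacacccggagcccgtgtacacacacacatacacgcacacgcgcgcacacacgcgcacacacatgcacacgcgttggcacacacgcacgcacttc
The word in the E2f7 window begins 198 bases before the start, and that in the Zfp61 window 20 bases before it, both on the opposite strand. A window was at hand for 20 of the 23 genes past the threshold below, and 1 of the 20 (5.00%) held a word, against 455 of 14452 measured genes (3.15%). The words were in 10 of 43 DNA replication genes (23.3%) and in 5 of 63 mitosis genes (7.94%). These are matches of letters and not sites of binding.

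The values are log2 signals, so 1 unit is a doubling. The 15 arrays correlated with one another at a mean of 0.991 to 0.995, lowest for WT replicate 3, and no pair of arrays was identical. The 32 measured hepatocyte markers had a mean log2 signal of 12.9 to 13.1 on every array, with a median interaction of 0.03 and no member past the threshold. The median standard deviation (SD) within a group was 0.138 at 3 weeks and 0.108 at 2 months.

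The arrays gave a partial check of the deleted genes. The brighter E2f8 probe set read 8.72, 9.56, 8.24 and 8.38 in 78KO livers, 7.45, 7.71, 7.54 and 8.18 in 7KO livers, 9.30, 8.91, 8.85 and 8.75 in 8KO livers, and 7.79, 7.22 and 6.44 in WT livers. It was thus higher, not lower, on every array labelled 8KO and 78KO than on every WT array. The array also carries Gm2788, whose non-coding transcript shares part of the E2f8 locus on chromosome 7 in RefSeq. It read 5.72, 5.65, 5.98 and 5.82 in 78KO livers, 9.26, 9.89, 9.81 and 10.002 in 7KO livers, 5.82, 5.60, 5.47 and 5.93 in 8KO livers, and 9.60, 9.75 and 8.998 in WT livers. The arrays without E2f8 were all more than 3 log2 units below those with it, whichever the state of E2f7.

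The E2f7 probe set was dim and did not separate the 7KO arrays from the WT arrays. It read 4.31, 4.85, 4.62 and 4.66 in 78KO livers, 4.69, 4.85, 4.70 and 4.85 in 7KO livers, 4.88, 5.29, 5.09 and 5.12 in 8KO livers, and 4.89, 4.76 and 4.62 in WT livers. Every 78KO array was below every 8KO array, with a difference of -0.49 (SE 0.14, limma adjusted p = 0.110). Where these probe sets lie relative to the floxed exons is unknown here, so neither gene's own probe set, as shown here, checks its deletion. The interaction was -0.50 (SE 0.21, limma adjusted p = 0.462) for E2f7, -0.79 (SE 0.48, adjusted p = 0.652) for E2f8 and -0.20 (SE 0.58, adjusted p = 0.950) for Gm2788. For the other members, E2f1 to E2f6, it lay between -0.09 and 0.09, and none passed the test. A dimmer second E2f8 probe set had an interaction of -0.77 (limma adjusted p = 0.595 over all probe sets), and its signals by array are not shown.

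Over all genes the median interaction was 0.01, with 9416 genes (51.8%) above 0 and 8777 (48.2%) below. At an adjusted p under 0.05 (limma, Benjamini-Hochberg over all genes, with the spread estimated from all 35 arrays), 23 genes passed, 0.126% of those tested: 15 above the sum (0.0824%) and 8 below it (0.0440%). An unadjusted p under 0.05 was reached by 1681 genes (9.24%). With the spread estimated from the 15 arrays at 3 weeks alone, 2 genes passed (0.0110%), Trhde and Gys2, and the other 21 had adjusted p-values up to 0.293. The interaction values themselves are the same in that fit, and only their errors differ. Of the 23 genes, 16 had a larger SD within groups at 3 weeks than at 2 months. The median SD over all genes was also larger at 3 weeks, and the share of all genes with a larger one was not counted. With 1 array left out, Trhde, Gstt2, Gys2, Dpp9, Ephb6 and Ildr2 passed in all 15 fits. The other 17 each lost their call in at least 1 of the 15, and 10 of the 23 passed without WT replicate 3 and 8 without 7KO replicate 3. Without the term for the second run at 2 months, which enters through the shared spread, 1 gene passed (Ildr2). Beside each gene below, the adjusted p with 3-week arrays alone is therefore given second. Among the 23, Trhde, Npl, Pcdh17, Il17a, Ephb6, Cfhr3 and Zfp61 were in the dimmest 40% of genes.

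Of the 15 above the sum, 13 had both single knockouts below WT, and of the 8 below the sum, 7 had both single knockouts above it. In 17 of the 23 the double knockout lay within 0.3 of WT, where the median of that difference over all genes was 0.01. The shares of all genes with these arrangements were not counted, so none is shown to be particular to the 23 genes. The 78KO arrays differed from WT past the threshold in 4 of them, 1 higher (all genes: 0.440%) and 3 lower (0.209%, or 0.649% in either direction), the 8KO arrays in 17 (1.91%) and the 7KO arrays in 2 (0.0440%). The 78KO arrays differed from 8KO past it in 15 (0.693%) and from 7KO in 5 (0.121%). These counts come from the arrays that chose the genes and describe them only.

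**Figure D1:**
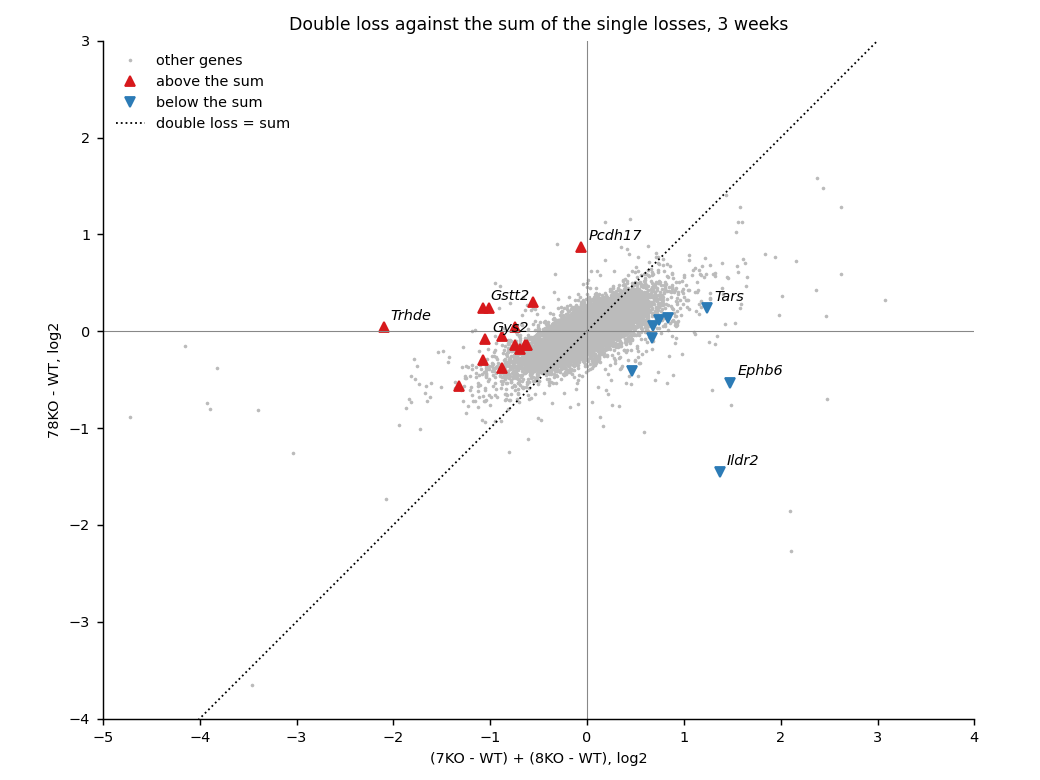
Change of the double loss against WT (vertical axis, log2) plotted against the sum of the changes of the single losses (horizontal axis, log2) for 18193 genes at 3 weeks. Both axes contain the same WT arrays, which by itself lines the points up. Upward triangles are the 15 genes above the sum and downward triangles the 8 below it. Most of them lie near 0 on the vertical axis, as Trhde does at 0.04, and the share of all genes that do was not counted.

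Trhde encodes the ectoenzyme that degrades thyrotropin-releasing hormone. Its log2 signal was 4.55, 4.70, 4.68 and 4.48 in 78KO livers, 4.56, 4.56, 4.36 and 4.93 in 7KO livers, 2.70, 2.27, 2.32 and 2.37 in 8KO livers, and 4.76, 4.90 and 4.03 in WT livers. The 4 arrays of the E2f8 knockout stood alone, 1.32 below the lowest other array, while the double knockout overlapped WT. The interaction was 2.14 (SE 0.29, limma adjusted p = 0.000398, and 0.00139 with 3-week arrays alone). The difference of 8KO from WT was -2.15 (SE 0.21), and that of 78KO from 7KO was -0.001 (SE 0.19). Trhde starts 4.06 Mb from E2f7 on chromosome 10. Of the 28 measured genes within 5 Mb of E2f7 it was the 1 past the threshold, and their median interaction was 0.015. None of the 128 within 5 Mb of E2f8 passed, and their median was 0.016.

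A second gene had the same shape without passing. B4galnt1, the ganglioside synthase that makes GM2 and GD2, is named here after its values were seen. It read 8.78, 8.72, 8.84 and 9.07 in 78KO livers, 8.75, 8.91, 8.26 and 8.996 in 7KO livers, 7.99, 4.05, 3.88 and 4.58 in 8KO livers, and 8.68, 8.91 and 9.41 in WT livers. All 8KO arrays were below all others, but 8KO replicate 1 was much closer to them than the other 8KO arrays were. The interaction was 4.00 (SE 0.91, adjusted p = 0.0661, and 0.181 with 3-week arrays alone).

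Gys2, the liver glycogen synthase, read 10.37, 10.52, 10.03 and 10.09 in 78KO livers, 10.09, 9.997, 10.08 and 10.24 in 7KO livers, 9.47, 9.59, 9.51 and 9.46 in 8KO livers, and 10.38, 10.33 and 10.28 in WT livers. Again the 8KO arrays were the lowest, by 0.40, and the 78KO and WT arrays overlapped. The interaction of Gys2 was 0.97 (SE 0.16, limma adjusted p = 0.00722, and 0.0226 with 3-week arrays alone). It was 1 of 24 measured glycogen genes past the threshold, and the median of that list was -0.00.

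Gstt2, a theta-class glutathione transferase, read 9.87, 10.14, 10.33 and 10.17 in 78KO livers, 9.54, 9.38, 9.28 and 9.21 in 7KO livers, 9.03, 9.19, 9.82 and 9.32 in 8KO livers, and 9.67, 10.02 and 9.96 in WT livers. The 78KO arrays were all above the 7KO and 8KO arrays and overlapped WT. The interaction was 1.31 (SE 0.22, limma adjusted p = 0.00722, and 0.0617 with 3-week arrays alone), and the 2 single losses were of like size, -0.53 for 7KO and -0.54 for 8KO against WT, neither past the threshold. Of the 31 measured glutathione genes it was the only one past the threshold, with a list median of 0.04.

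Ak4, an adenylate kinase of the mitochondrial matrix, averaged 10.40 ± 0.24 in 78KO livers, 10.40 ± 0.07 in 7KO livers, 9.61 ± 0.13 in 8KO livers (SD, n = 4 each) and 10.45 ± 0.24 in WT livers (SD, n = 3), with an interaction of 0.83 (adjusted p = 0.0308, and 0.129 with 3-week arrays alone). Slc25a4, the mitochondrial carrier that exchanges ADP for ATP, had 0.86 (adjusted p = 0.0319 and 0.192), Kmo, the kynurenine hydroxylase of tryptophan breakdown, 0.79 (0.0338 and 0.10), and Acsm3, a medium-chain acyl-CoA synthetase, 0.78 (0.0149 and 0.10). Mettl7a1, a lipid droplet protein, had 0.51 (0.0319 and 0.126). In each of these the 8KO mean was the lowest of the 4 groups. None of the other Ak4 probe sets passed, at 0.87 (limma adjusted p = 0.0794 over all probe sets), 0.26, 0.24 and -0.17. Other probe sets passed for Slc25a4, at 1.20, and for Mettl7a1, at 0.47. The rest did not pass, at 0.91 and 0.15 for Slc25a4 and at 0.21 for Mettl7a1.

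In Akr1c14 and Aldh6a1 the WT arrays were above all others. Akr1c14, a steroid-metabolising aldo-keto reductase, averaged 10.72 ± 0.08 in 78KO livers, 10.61 ± 0.14 in 7KO livers, 10.64 ± 0.19 in 8KO livers (SD, n = 4 each) and 11.28 ± 0.09 in WT livers (SD, n = 3). All 3 knockouts were lower than WT past the threshold, by -0.57, -0.67 and -0.65 (limma adjusted p = 0.0216, 0.00664 and 0.00207), and the interaction was 0.75 (adjusted p = 0.0319, and 0.10 with 3-week arrays alone). Aldh6a1, an enzyme of valine breakdown, likewise differed from WT by -0.38, -0.51 and -0.37 in 78KO, 7KO and 8KO livers (adjusted p = 0.00818, 0.000285 and 0.00279), and its interaction was 0.50 (adjusted p = 0.0147 and 0.206). In neither gene did 78KO differ past the threshold from 7KO (0.11 and 0.13) or from 8KO (0.08 and -0.01).

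Pcdh17, a protocadherin, had the opposite arrangement: its double knockout stood alone. It read 4.46, 4.50, 4.54 and 4.47 in 78KO livers, 4.14, 3.50, 3.60 and 3.60 in 7KO livers, 3.63, 3.36, 3.46 and 3.41 in 8KO livers, and 3.48, 3.52 and 3.86 in WT livers. Every 78KO array was at least 0.31 above every other array, which was so, in either direction, for 61 of all genes (0.335%). The 78KO livers were higher than WT by 0.87 (limma adjusted p = 0.000876) while the single losses differed from WT by 0.09 and -0.15, neither past the threshold. The interaction was 0.93 (SE 0.17, adjusted p = 0.0148, and 0.10 with 3-week arrays alone), at signals among the dimmest 40% of genes. A dimmer second probe set of Pcdh17 gave 0.52 and did not pass.

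The remaining genes above the sum were Npl, Pilra, Il17a and Plxna3. Npl, the lyase that splits sialic acid, averaged 5.76 ± 0.35 in 78KO livers, 5.20 ± 0.17 in 7KO livers, 4.82 ± 0.16 in 8KO livers (SD, n = 4 each) and 5.51 ± 0.43 in WT livers (SD, n = 3). Its interaction was 1.25 (adjusted p = 0.0149, and 0.134 with 3-week arrays alone). Pilra, an inhibitory receptor of myeloid cells, had 0.61 (0.0449 and 0.206), the cytokine Il17a 0.50 (0.0191 and 0.187) and Plxna3, a semaphorin receptor, 0.48 (0.0308 and 0.250). In none of these 4 was any group's set of arrays fully apart. A dimmer second Plxna3 probe set gave 0.24 (limma adjusted p = 0.566 over all probe sets) and did not pass. Over 8 other choices of processing Plxna3 lost its call in 5, with limma adjusted p-values up to 0.884.

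**Figure D2:**
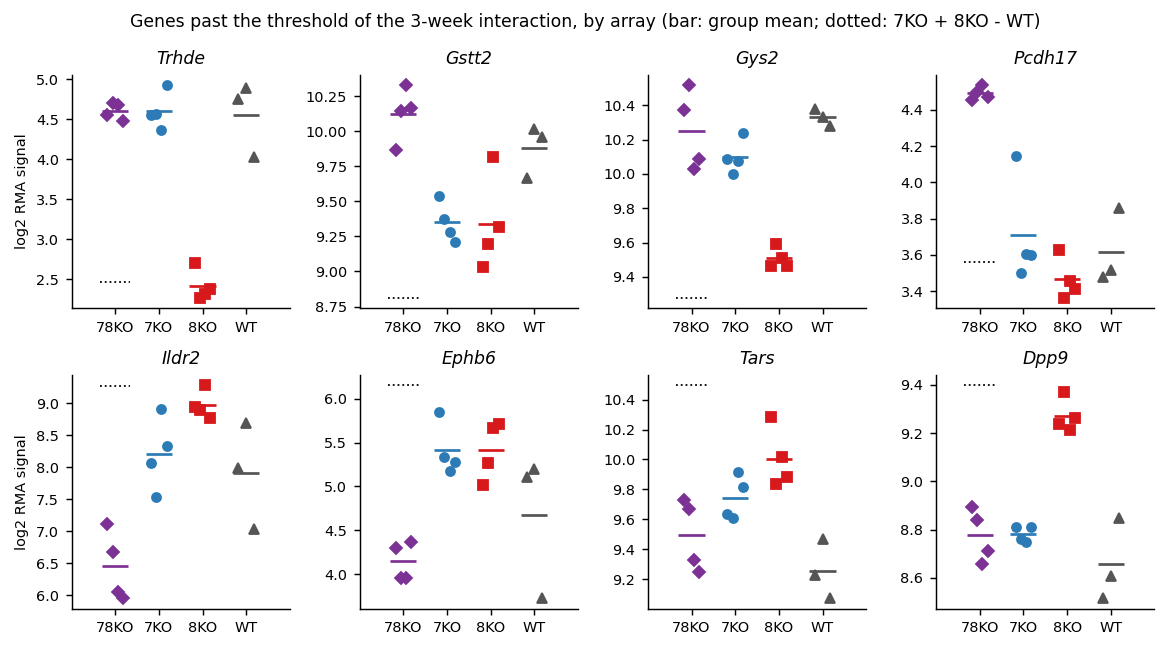
Log2 RMA signal of 8 genes past the threshold on each of the 15 arrays at 3 weeks, with 78KO, 7KO, 8KO and WT from left to right. Points are arrays, bars are group means, and the dotted line over 78KO is the 7KO mean plus the 8KO mean minus the WT mean, from which the 78KO bar departs by the interaction. The vertical axes differ between panels and do not start at 0. Trhde shows only the 8KO arrays apart, Pcdh17 only the 78KO arrays.

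Among the 8 genes below the sum, Ildr2 and Ephb6 had the largest values. Ildr2, an immunoglobulin-like receptor tied to hepatic lipid metabolism in mice, read 7.11, 6.67, 6.06 and 5.95 in 78KO livers, 8.06, 7.53, 8.90 and 8.33 in 7KO livers, 8.94, 8.89, 9.27 and 8.77 in 8KO livers, and 7.98, 8.68 and 7.04 in WT livers. The 78KO arrays were the lowest save for WT replicate 3, which lay just under 78KO replicate 1. The interaction of Ildr2 was -2.82 (SE 0.48, limma adjusted p = 0.00722, and 0.0871 with 3-week arrays alone). The 78KO livers were lower than WT by -1.45 (adjusted p = 0.0447). A second Ildr2 probe set gave -2.09 (adjusted p = 0.0317 over all probe sets) and the other one -0.52, which did not pass.

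Ephb6, an Eph receptor whose kinase domain is inactive, read 4.29, 3.96, 3.96 and 4.37 in 78KO livers, 5.85, 5.34, 5.18 and 5.28 in 7KO livers, 5.02, 5.26, 5.66 and 5.71 in 8KO livers, and 5.11, 5.19 and 3.73 in WT livers. Every 78KO array was below every single-knockout array, and WT replicate 3 was below them all. The interaction was -2.01 (SE 0.30, limma adjusted p = 0.00194, and 0.10 with 3-week arrays alone), and -1.53 at its weakest with 1 array left out. Of the 20 measured Eph receptors and ephrins it was the only one past the threshold, and the list's median was 0.08.

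Tars, the threonyl-tRNA synthetase, averaged 9.49 ± 0.24 in 78KO livers, 9.75 ± 0.15 in 7KO livers, 10.006 ± 0.20 in 8KO livers (SD, n = 4 each) and 9.26 ± 0.20 in WT livers (SD, n = 3). Its interaction was -1.001 (adjusted p = 0.0319, and 0.10 with 3-week arrays alone). The 22 measured aminoacyl-tRNA synthetases, which load amino acids on tRNAs, had 17 members below 0 (all genes: 48.2%), with Tars the only one past the threshold. Their median was -0.11, and with 1 array left out it ran from -0.17 (without 78KO replicate 1) to -0.04 (without 78KO replicate 3). Against WT, 1 of the 22 was higher past the threshold in 78KO, 0 in 7KO and 4 in 8KO (all genes, higher: 0.440% in 78KO and 0.879% in 8KO).

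Dpp9, a cytosolic dipeptidyl peptidase, was the mirror image of Gys2: it read 8.90, 8.84, 8.66 and 8.71 in 78KO livers, 8.81, 8.76, 8.75 and 8.81 in 7KO livers, 9.24, 9.37, 9.21 and 9.27 in 8KO livers, and 8.52, 8.61 and 8.85 in WT livers. The 8KO arrays were all above the rest, by 0.32. Its interaction was -0.62 (SE 0.11, limma adjusted p = 0.00722, and 0.10 with 3-week arrays alone). Tspyl4 and Pafah1b3, a catalytic subunit of a platelet-activating factor acetylhydrolase, also had their 8KO arrays above all others, with interactions of -0.70 for Tspyl4 (adjusted p = 0.0497, and 0.293 with 3-week arrays alone) and -0.74 for Pafah1b3 (0.0308 and 0.10). A dimmer second Tspyl4 probe set gave 0.13, of the opposite sign, and did not pass. Cfhr3, a factor H related protein, had -0.88 (0.0319 and 0.293) and the zinc finger gene Zfp61 -0.63 (0.0319 and 0.159), both at dim signals and with no group apart.

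In all, the 8KO arrays were beyond all other arrays in 7 of the 23 genes (194 of all genes, 1.07%), the WT arrays in 3 (1.02%), the 78KO arrays in 1 and the 7KO arrays in 0 (0.203%). The genes next to the threshold were Kmo, Pilra and Tspyl4 within it, at adjusted p-values of 0.0338, 0.0449 and 0.0497. Just outside lay Slc30a10, at -1.31 and 0.0612, Wfdc21 at -0.62 and 0.0612, Rgl1 at 0.75 and 0.0620, and Hsd3b1 at -2.02 and 0.0620.

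Loss of 1 gene was also compared in the presence and absence of the other, in pairs of contrasts that share no array. Over 18193 genes, the effect of E2f7 loss without E2f8 correlated with that with E2f8 at r = 0.052 (Spearman 0.150), and the effect of E2f8 loss without E2f7 with that with E2f7 at r = 0.208 (0.169). Without the dimmest 40% of genes they were 0.031 (0.127) and 0.271 (0.257). Only 8 genes (0.0440%) differed past the threshold between 7KO and WT, and a low r cannot tell unlike effects from noise. These are correlations across genes, which are not independent replicates, and no p is given.

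No member passed the threshold in 3 lists of the cell cycle, whose genes atypical E2Fs are known to repress. Of 52 measured DNA replication genes 46 were below 0, of 75 mitosis and cytokinesis genes 62, and of 38 DNA repair genes 30 (all genes: 48.2% below). Their medians were -0.17, -0.22 and -0.15. These values do not mean a lower signal in 78KO than in WT. The 78KO mean was above WT in 36 replication, 65 mitosis and 22 repair genes. The 7KO mean was above it in 50, 70 and 32, and the 8KO mean in 33, 61 and 21. Over all 18193 genes these counts were 9730 for 78KO, 9378 for 7KO and 9178 for 8KO. The 3 replication genes with the smallest p were Orc6, an origin recognition subunit, at -0.40, Dbf4, the activator of the Cdc7 kinase, at -0.49, and Pole2, a polymerase epsilon subunit, at -0.36 (adjusted p = 0.279, 0.453 and 0.485). For mitosis they were Kif20b at -0.64, Aurkb, a kinase of the chromosomal passenger complex, at -0.46, and Cdc25b at 0.32, none past the threshold.

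The mean log2 signal of the mitosis list ran from 5.68 to 6.45 on the 78KO arrays, from 6.05 to 6.27 on the 7KO arrays, from 5.90 to 6.28 on the 8KO arrays, and from 5.66 to 6.09 on the WT arrays. The groups overlapped, and WT replicate 3 was the lowest of all. With 1 array left out, the median interaction of the mitosis list ran from -0.31 (without 78KO replicate 3) to -0.05 (without 78KO replicate 1, and likewise without WT replicate 3). That of the replication list ran from -0.24 (without 7KO replicate 1) to -0.06, and that of the repair list from -0.18 (without 8KO replicate 1) to -0.08, the last of each without WT replicate 3. The E2F, pocket protein and DREAM complex genes had a median of -0.04, with 0 of 35 past the threshold.

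Of the marker lists of cells other than hepatocytes, that of macrophages lay furthest from 0. All 21 measured Kupffer cell and macrophage markers lay above 0 (all genes: 51.8%), with a median of 0.49, and none passed the threshold. Aif1, a calcium-binding protein of macrophages, had 0.75 (SE 0.18, limma adjusted p = 0.0990) and Adgre1, which encodes F4/80, 0.62 (SE 0.20, adjusted p = 0.274). A value above 0 does not mean a higher signal in 78KO than in WT. The group mean was below WT for 19 of the 21 markers in 78KO, 20 in 7KO and 21 in 8KO. Over all 18193 genes these counts were 8463, 8815 and 9015. In bulk liver, fewer cells of a type and less RNA per cell cannot be told apart. The mean of the list ran from 7.40 to 7.56 in 78KO livers, from 7.07 to 7.50 in 7KO livers, from 6.99 to 7.68 in 8KO livers and from 7.52 to 8.04 in WT livers, so all groups overlapped WT apart from 7KO. With 1 array left out, the median interaction ran from 0.36 (without 8KO replicate 4) to 0.63 (without WT replicate 1). It was 0.38 without WT replicate 3, the array with the highest mean. The part of these markers in the values of Npl and Pilra was not tested.

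Erythroid markers were above 0 in 15 of 16, with a median of 0.24 and none past the threshold. Their mean ran from 5.95 to 6.07 in 78KO livers, from 5.88 to 5.93 in 7KO livers, from 5.78 to 5.86 in 8KO livers and from 5.94 to 6.10 in WT livers, so both single knockouts lay below the double knockout and WT on every array. Slc4a1, the anion exchanger of red cells, had 1.40 (SE 0.33, limma adjusted p = 0.0831). Sinusoidal endothelial markers had a median of 0.12 over 27, stellate cell markers 0.15 over 20, cholangiocyte markers 0.12 over 11, and neutrophil markers 0.11 over 11. T and NK cell, B cell and MHC class II antigen-presenting markers had 0.06, -0.04 and -0.06, and pancreatic acinar, adipocyte and skeletal muscle markers 0.09, 0.12 and 0.03. None of these markers passed the threshold. With 1 array left out, the endothelial median ran from 0.03 (without WT replicate 3) to 0.26 (without 8KO replicate 2), the stellate one from 0.07 (without 8KO replicate 4) to 0.30 (without 8KO replicate 2) and the neutrophil one from 0.03 (without 7KO replicate 4) to 0.17 (without 7KO replicate 1). The B cell and skeletal muscle medians changed sign, at 0.05 without WT replicate 2 and at -0.095 without WT replicate 1. Without WT replicate 1 the T and NK cell median was 0.004, the MHC class II one -0.19 and the acinar one 0.015. The cholangiocyte median was 0.08 without 8KO replicate 4 and the adipocyte one 0.197 without 8KO replicate 2.

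**Figure D3:**
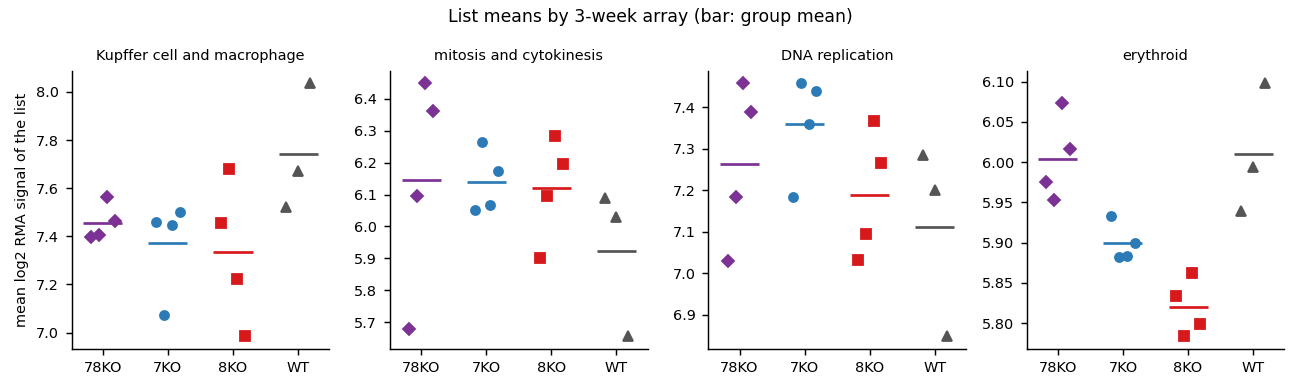
Mean log2 RMA signal of 4 gene lists on each array at 3 weeks, with 78KO, 7KO, 8KO and WT from left to right in each panel. Points are arrays and bars are group means, and the vertical axes differ and do not start at 0. WT replicate 3 is highest for macrophage and erythroid markers and lowest for mitosis and DNA replication.

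Among the lists of liver function, the widest departure was in the 12 male-biased liver genes, with a median of -0.71 and 9 below 0. It was -0.26 without WT replicate 3, and the list mean ran from 8.73 to 10.1 within the 78KO arrays alone. The 14 female-biased genes had a median of -0.16, which was -0.005 without 78KO replicate 1 and -0.39 without 78KO replicate 4, and the Y-linked Eif2s3y read 7.62 to 8.09 on every array. Neither list had a member past the threshold. Sult3a1, a female-biased sulfotransferase, had -3.95 (SE 1.09, limma adjusted p = 0.189).

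Circadian clock genes had a median of 0.26 over 20, with Rgs16, a regulator of G protein signalling, at 3.84 (SE 1.06, limma adjusted p = 0.189) and Usp2, a clock-controlled deubiquitinase, at 1.11 (adjusted p = 0.184). Fatty acid synthesis had -0.26 over 23, which was -0.08 without WT replicate 3 and -0.46 without WT replicate 2, and cholesterol synthesis 0.05 over 20. PPAR alpha targets and fatty acid oxidation had -0.03 over 28, gluconeogenesis and fasting response 0.10 over 18, and xenobiotic metabolism 0.17 over 32. None of these 6 lists had a member past the threshold. With 1 array left out, the clock median was 0.15 at its lowest (without 8KO replicate 1), the gluconeogenesis one 0.02 (without 7KO replicate 2) and the xenobiotic one 0.09 (without WT replicate 3), while those of cholesterol synthesis and PPAR alpha targets changed sign, at -0.09 without 8KO replicate 2 and at 0.035 without 7KO replicate 1.

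Bile acid synthesis and transport had a median of 0.05 over 27, with Akr1c14 past the threshold, sialic acid and amino sugar metabolism -0.01 over 28, with Npl, and complement regulators -0.02 over 26, with Cfhr3. For stress and growth lists with no member past the threshold, the medians were -0.14 for p53 targets over 27, 0.07 for ATF4 and the amino acid response over 27, -0.17 for the unfolded protein response over 22, and 0.05 for heat shock over 16. They were -0.03 for the acute phase over 24, 0.02 for interferon-induced genes over 26 and 0.09 for fetal and perinatal liver genes over 19, the last 0.28 without 8KO replicate 2. Some of these medians changed sign with 1 array left out. The unfolded protein response was at 0.01 and ATF4 at -0.03 without WT replicate 1, heat shock at -0.145 without WT replicate 2, and interferon-induced genes at -0.04 without 8KO replicate 2. Among the lists with a member past the threshold, complement regulators were at 0.04 without 8KO replicate 1, and sialic acid metabolism at 0.04 and glycogen metabolism at 0.04 without WT replicate 1.

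The same 4 genotypes at 2 months (4 arrays each of 78KO, 7KO and 8KO, and the 3 WT arrays of the same normalization run) share no array with those at 3 weeks. There the contrast gave 199 genes past the threshold (1.09%), 107 above the sum (0.588%) and 92 below it (0.506%). Of the 23 genes at 3 weeks, 2 passed at 2 months, and 13 of 23 had the same sign. Their median absolute interaction was 0.79 at 3 weeks and 0.15 at 2 months, with the first set by the choice of the genes. Over all genes the interactions of the 2 ages correlated at r = 0.149 (Spearman 0.028), given as a description across genes.

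Trhde was the gene that passed at both ages with the same sign. At 2 months it read 5.95, 6.32, 5.94 and 6.11 in 78KO livers, 6.08, 6.05, 5.82 and 6.43 in 7KO livers, 4.33, 4.24, 4.49 and 4.40 in 8KO livers, and 6.01, 5.83 and 6.08 in WT livers. The 8KO arrays were once more the only ones apart. The interaction was 2.14 at 3 weeks and 1.60 at 2 months (SE 0.29, limma adjusted p = 0.00396), and the difference of 0.55 between the ages did not pass (adjusted p = 0.703). B4galnt1 read 8.49, 5.26, 4.68 and 5.40 in 8KO livers at 2 months, and 8.32 to 9.65 on the arrays of the other groups. Its interaction was 4.00 at 3 weeks and 3.57 at 2 months (SE 0.91, adjusted p = 0.0438). At both ages replicate 1 of 8KO lay far above the other 8KO arrays, at 2 months within the range of the other groups.

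Gstt2 passed at both ages with opposite signs. Its signal at 2 months was 10.83, 11.05, 10.66 and 11.12 in 78KO livers, 11.30, 11.26, 11.27 and 11.67 in 7KO livers, 11.47, 11.37, 11.06 and 11.80 in 8KO livers, and 11.01, 10.65 and 11.25 in WT livers. Every 7KO array was above every 78KO and WT array, at the closest by 11.26 against 11.25 in WT. The 8KO arrays overlapped all other groups. The interaction of Gstt2 was 1.31 at 3 weeks and -0.92 at 2 months (SE 0.22, limma adjusted p = 0.0361), a difference of 2.23 (adjusted p = 0.000708). At 2 months 7 of the 31 glutathione genes passed below the sum (all genes, below: 0.506%), against 0 below it at 3 weeks.

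The difference between the ages was past the threshold for 39 genes (0.214%), 24 with the higher interaction at 3 weeks (0.132%). Of the 23 genes it was past it for 6: Gstt2, Gys2 (1.06, adjusted p = 0.0427), Slc25a4 (1.22, 0.0349), Acsm3 (0.95, 0.0416), Aldh6a1 (0.61, 0.0409) and Dpp9 (-0.80, 0.0227). For Ildr2 it was -2.68 (SE 0.67, adjusted p = 0.106), so its values of -2.82 at 3 weeks and -0.14 at 2 months are not shown to differ.

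**Figure D4:**
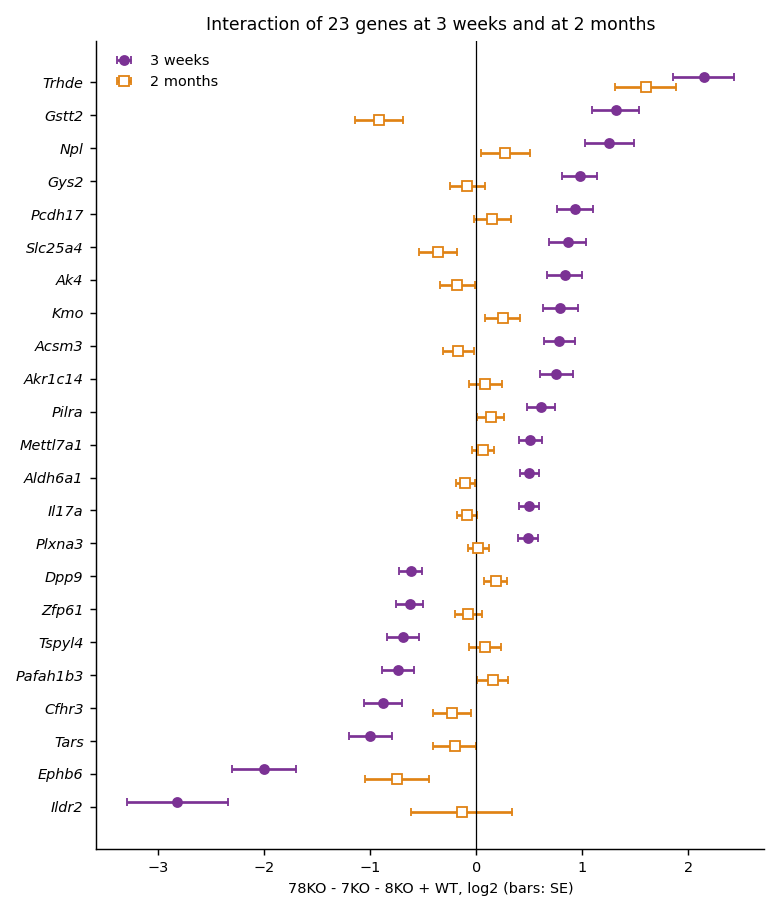
Interaction (78KO - 7KO - 8KO + WT, log2) of the 23 genes past the threshold at 3 weeks, as filled circles, and of the same genes at 2 months, as open squares, with bars for the SE. The 23 genes were chosen on the circles. Trhde keeps its place at 2 months, Gstt2 changes sign, and most of the rest are near 0.

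Some list medians lay further from 0 at 2 months than at 3 weeks. Acute phase genes, which the liver secretes in inflammation, had a median of -0.03 at 3 weeks and 0.56 at 2 months, with 0 and 9 members past the threshold, all above the sum (all genes above it: 0.0824% at 3 weeks and 0.588% at 2 months). The WT arrays at 2 months did not read alike on such genes: Lcn2, an iron-scavenging lipocalin, read 11.71, 11.64 and 6.52 on WT replicates 1, 2 and 3, and Orm2, an acid glycoprotein, 11.28, 9.82 and 6.50. The part of these arrays in the 2-month values was not tested. The gap was past the threshold for Saa1, a serum amyloid, at 0.17 at 3 weeks and 4.85 at 2 months (difference -4.69, limma adjusted p = 0.0458), where the same WT arrays read 14.01, 13.88 and 10.82. Unfolded protein response genes had -0.17 and 0.67, with 0 and 5 past the threshold, all 5 above the sum, and fatty acid synthesis -0.26 and -0.80, with 0 and 1. Macrophage markers had 0.49 at 3 weeks and 0.64 at 2 months, with 0 and 2 past the threshold. The medians themselves were not tested between the ages.

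**Figure D5:**
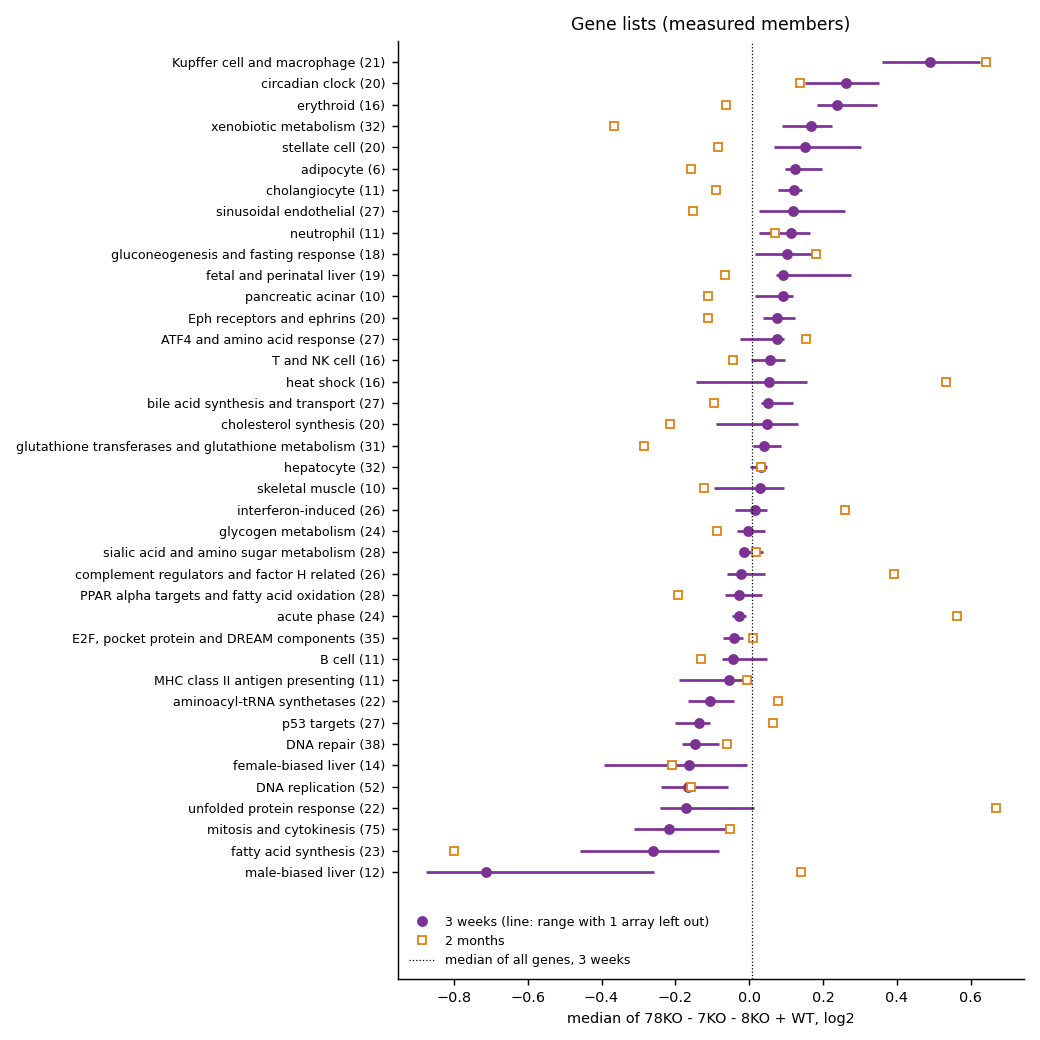
Median interaction of the measured members of 39 gene lists (log2, numbers of members in brackets) at 3 weeks, as filled circles with a line for the range when 1 array is left out, and at 2 months, as open squares. The dotted line is the median of all genes at 3 weeks. Macrophage markers lie furthest right and male-biased liver genes furthest left at 3 weeks.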

How the data were processed

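The authors deposited 1 log2 signal per probe set and array, made with RMA per the submitters' processing notes. The value distributions show 3 separate normalization runs, 1 of which holds all 15 arrays at 3 weeks. Of 45101 probe sets, 34945 carry 1 gene symbol in the platform annotation, and the brightest one, by its mean on the 35 arrays, stood for each of 18193 genes. limma 3.58.1 in R 4.3.3 fitted 9 group means and a term for the second run at 2 months (25 residual degrees of freedom), with an intensity trend, two-sided tests and Benjamini-Hochberg adjustment over all genes. Tests were checked on simulated data. The number of arrays limits the precision.

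The text names the E2F family and Gm2788, every gene past the threshold at 3 weeks, and genes from the 3 of smallest p in each list and from those past the threshold at 2 months or between the ages. B4galnt1, and the choice among the last 2 kinds, followed after values were seen. The members, the 39 lists and the tests were chosen with earlier results of these data known. Arrays of the same replicate number showed no pairing: 6 of 21 such pairs had a correlation of deviations over 0.1. Their mean was 0.006, against -0.002 for other numbers, whose share over 0.1 was not counted. Other groupings of replicates were not tested. The heat shock list had means of 10.08, 10.15, 9.50 and 9.44 on 78KO replicates 1 to 4, but only 9.79 to 9.95 in 7KO and 9.49 to 9.65 in 8KO. Promoter windows came from RefSeq. Alternatives were the arrays used, the run term, normalization, probe set choice, trend, array weights, a replicate block, a filter on dim genes and each array left out. Python 3.11.15 drew the figures.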

Additional observations from a re-analysis of the deposited data

Results flagged for a closer look

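In 81 groups of 4 arrays (27 genes at 3 weeks), 4 held an array that stood off from its group by Dixon's criterion, where chance gives about 1 in 20. Pcdh17 read 4.14 in 7KO replicate 1, against 3.50 to 3.60 in the other 7KO arrays. Plxna3 read 5.49 in 78KO replicate 1, against 5.29 to 5.32. Tspyl4 read 5.67 in 8KO replicate 4, against 6.18 to 6.27. B4galnt1 read 7.99 in 8KO replicate 1, against 3.88 to 4.58.

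The interaction differed between the ages, by limma's test of the difference over all genes, for 39 genes. Named here are those with the largest differences each way and those also past the threshold at 3 weeks. Values are 3 weeks minus 2 months in log2. The positive differences were 3.84 for the glutathione transferase Gsta2, 3.16 for Osbpl3, an oxysterol-binding protein relative, 2.41 for the water channel Aqp4, 2.30 for the nuclear receptor Esrrg, 2.23 for Gstt2, 1.22 for Slc25a4, 1.06 for Gys2, 0.95 for Acsm3 and 0.61 for Aldh6a1. The negative ones were -4.69 for Saa1, -3.26 for the hepatokine Fgl1, -1.24 for Dedd2, -1.13 for Armcx3, -1.07 for Tmem176a and -0.80 for Dpp9.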

How the results depend on the processing

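The 23 calls at 3 weeks became 2 with only the arrays compared and 1, Ildr2, with no run term, where 1384 and 1046 genes had an unadjusted p under 0.05; neither choice alters the interaction values at 3 weeks, only their errors. They were 22 with quantile normalization, 16 without the dimmest 40% of genes (16 of the 23 were tested), 25 with probe sets averaged per gene, 23 with no trend and 20 with array weights. With a replicate block there were 26 (20 of the 23 among them), against 200 at 2 months and 32 between the ages, and 5 of 15 arrays correlated best with their own number. With 1 array left out the count ran from 8 (without 7KO replicate 3) to 31 (without WT replicate 2), and was 10 without WT replicate 3, 14 without 7KO replicate 1 and 14 without 78KO replicate 3. Trhde, Gstt2, Gys2, Dpp9, Ephb6 and Ildr2 passed in all 15 of these fits. Trhde lost its call with no run term (adjusted p = 0.233).

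The 199 calls at 2 months became 582 with array weights, and ran from 60 (without WT replicate 1) to 268 (without WT replicate 3) with 1 array left out. The 39 between the ages became 9 with no run term and 71 with array weights, and ran from 2 (without 2-month WT replicate 2) to 74 (without 2-month WT replicate 3). The cause of these changes was not tested. Of the 199 genes, 198 kept their direction with no run term, and 1 reversed. The correlation of the ages, without the dimmest 40% of genes, an alternative chosen after seeing the data, was 0.169. Gstt2, Gys2 and Pafah1b3 had no promoter window here.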
